A study of Mus musculus with 12 samples.

Results

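The 37 genes described here encode core components of the BMP and TGF-beta signalling pathways: 5 BMP ligands, 6 BMP and activin receptors or pseudoreceptors, 6 extracellular antagonists and binders, 5 genes for TGF-beta and activin ligands and a latency protein, 3 TGF-beta receptors, 8 Smads and 4 Id genes. They were taken from a list of gene names, and all 37 were found as protein-coding genes among the 53392 genes of the deposited tables. RNA was measured in 12 libraries of mesenchyme from the upper face of mouse embryos on the 129S4 strain background, in 4 groups of 3. Palatal shelves at stage E13.5 (embryonic day) came from wild-type embryos (Pdgfra+/+) or from embryos homozygous for the PI3K allele of the receptor gene Pdgfra (PdgfraPI3K/PI3K). Maxillary processes at stage E11.5 all carried 2 floxed copies of Srsf3, which encodes a splicing factor. The controls had no Cre transgene (Srsf3fl/fl;Wnt1-Cre+/+), and the libraries labelled Srsf3 cKO carried Wnt1-Cre (Srsf3fl/fl;Wnt1-Cre+/Tg), which is active in neural crest, so that cells of other origin in the process would keep the gene. The labels do not say whether a library came from 1 embryo or a pool, and p-values therefore measure the spread between these libraries.

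BMP and TGF-beta ligands are secreted dimers that bring together type I and type II receptor kinases. BMP receptors phosphorylate Smad1, Smad5 and Smad9, and TGF-beta and activin receptors phosphorylate Smad2 and Smad3. Both kinds of Smad join Smad4 and enter the nucleus, where the Id genes are classical targets of BMP input. Noggin, chordin, gremlin and follistatin hold ligands away from their receptors, and Smad6, Smad7 and the pseudoreceptor Bambi restrain the signal inside the cell and at its surface. In the face these pathways are known for outgrowth and patterning of the maxillary mesenchyme and for growth and fusion of the palatal shelves.

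The Id genes were the only role group of which every gene differed between palatal shelf and maxillary process in both sets of libraries, with 3 genes lower and 1 higher in the shelf, and the sequences upstream of 3 of them are shown for that reason. Of all genes tested in both sets, 35.4% differed in both in the same direction. The sequences shown are the 250 bases before the RefSeq start (build GRCm38.p6), written 5′ to 3′ along the gene. Capitals mark the GC-rich Smad site GGCGCC or the Smad core CAGAC, the latter also where its complement GTCTG lies on the printed strand. The Id2 window lies at chr12:25096093-25096342 on the minus strand, the Id3 window at chr4:136143572-136143821 and the Id4 window at chr13:48260866-48261115, both on the plus strand. In the GENCODE annotation the gene models of Id2 (chr12:25093799-25097140) and Id3 (chr4:136143497-136145755) start further upstream, so that these 2 windows lie inside them. Id1 had no window in the table.
Id2: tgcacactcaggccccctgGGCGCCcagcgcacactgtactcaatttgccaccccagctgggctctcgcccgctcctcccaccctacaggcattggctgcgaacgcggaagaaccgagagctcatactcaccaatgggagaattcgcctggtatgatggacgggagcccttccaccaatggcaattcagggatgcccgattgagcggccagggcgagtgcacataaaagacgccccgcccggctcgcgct
Id3: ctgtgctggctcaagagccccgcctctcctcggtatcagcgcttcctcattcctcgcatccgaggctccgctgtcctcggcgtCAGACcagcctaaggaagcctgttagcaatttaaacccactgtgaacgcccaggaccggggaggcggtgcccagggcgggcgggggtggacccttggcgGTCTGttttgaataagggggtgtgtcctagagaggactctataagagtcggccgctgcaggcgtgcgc
Id4: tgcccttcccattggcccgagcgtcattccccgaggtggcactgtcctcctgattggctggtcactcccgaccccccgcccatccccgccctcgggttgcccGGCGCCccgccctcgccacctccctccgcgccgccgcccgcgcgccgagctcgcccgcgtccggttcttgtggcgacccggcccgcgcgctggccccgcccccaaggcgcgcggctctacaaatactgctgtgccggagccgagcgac
Id2 and Id4 each held 1 copy of GGCGCC and Id3 held none, while Id3 held 2 copies of CAGAC and the other 2 windows none. Of the 32817 RefSeq windows of this length, 9.59% held GGCGCC on either strand, 42.2% held CAGAC and 0.168% held the palindrome GTCTAGAC. Of the 37 genes, 24 had an entry, with 30 windows. GGCGCC lay in 9 of these windows (Bmpr1a, Bmpr2, Chrd, Grem1, Id2, Id4, Smad5, Smad9 and Tgfbr1), CAGAC in 12 windows of 10 genes and the palindrome in none. None of these 3 motifs holds another. GGCGCC consists of G and C alone, and the Id2, Id3 and Id4 windows were 62.8%, 62.8% and 75.6% GC. The median over all windows was 52.4%, and the part of GC content in these matches was not tested. Id2 and Id4, whose levels differed between the tissues in opposite directions, thus shared the same letters here, and a match is a description of sequence only.

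Each palatal shelf library held 30509338 to 37406960 estimated counts and each maxillary library 15932541 to 27887654. Total Srsf3 was not lower in the libraries labelled cKO (320.4, 441 and 407 TPM, the level per transcript length scaled to the same total in each library) than in the controls (470.4, 407 and 416 TPM) beyond their spread, and the tables do not resolve the deleted exons. Among 8 general facial mesenchyme markers and 5 palatal shelf markers none was at 0 in any group. The summed level of 10 ectoderm markers was 349 to 1005 TPM in the palatal shelves against 1.31 to 12.6 TPM in the maxillary processes, although ectoderm had been digested from both. The maxillary libraries nearly lacked these transcripts. The summed level of 10 bone and cartilage markers was 1819 TPM in wild-type library 1 against 273 and 429.8 TPM in the other wild-type shelves, and 1058, 462 and 552 TPM in the PI3K shelves. Strand is not given for the counting, and 15 of the 37 genes overlap another gene model in GENCODE (12 on the opposite strand): Bmp4, Bmp5, Bmpr1a, Bmpr2, Acvr1, Acvr2a, Chrd, Fst, Tgfb2, Tgfb3, Inhba, Ltbp1, Tgfbr3, Smad5 and Id4. Reads of these and of their partners may be mixed.

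Levels in TPM are scaled for transcript length and can be set against each other between genes. The mesenchyme of all 4 groups held every type of component. Fstl1, which encodes a secreted binder of BMP and TGF-beta family ligands, had the highest mean level of the antagonists and binders, and Bmp4 the highest mean of the BMP ligands in each group. Bmpr1a (type I BMP receptor) led the receptors at 72.2 to 86.2 TPM in all 12 libraries, Tgfbr1 and Tgfbr2 (the signalling TGF-beta receptors) stood above the co-receptor gene Tgfbr3 in every shelf library, and Smad4 led the Smads on average, at 92.4 to 115 TPM. Id1, Id2 and Id3 each stood at 113 TPM or more everywhere, whereas Id4 stayed at or under 18.8 TPM. In the plot of levels by gene, the points of the 2 tissues overlap for every Smad, and the tissues separate for all 4 Id genes. Single groups do separate for some Smads: Smad7 in wild-type shelves lay below every maxillary library.

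**Figure D1:**
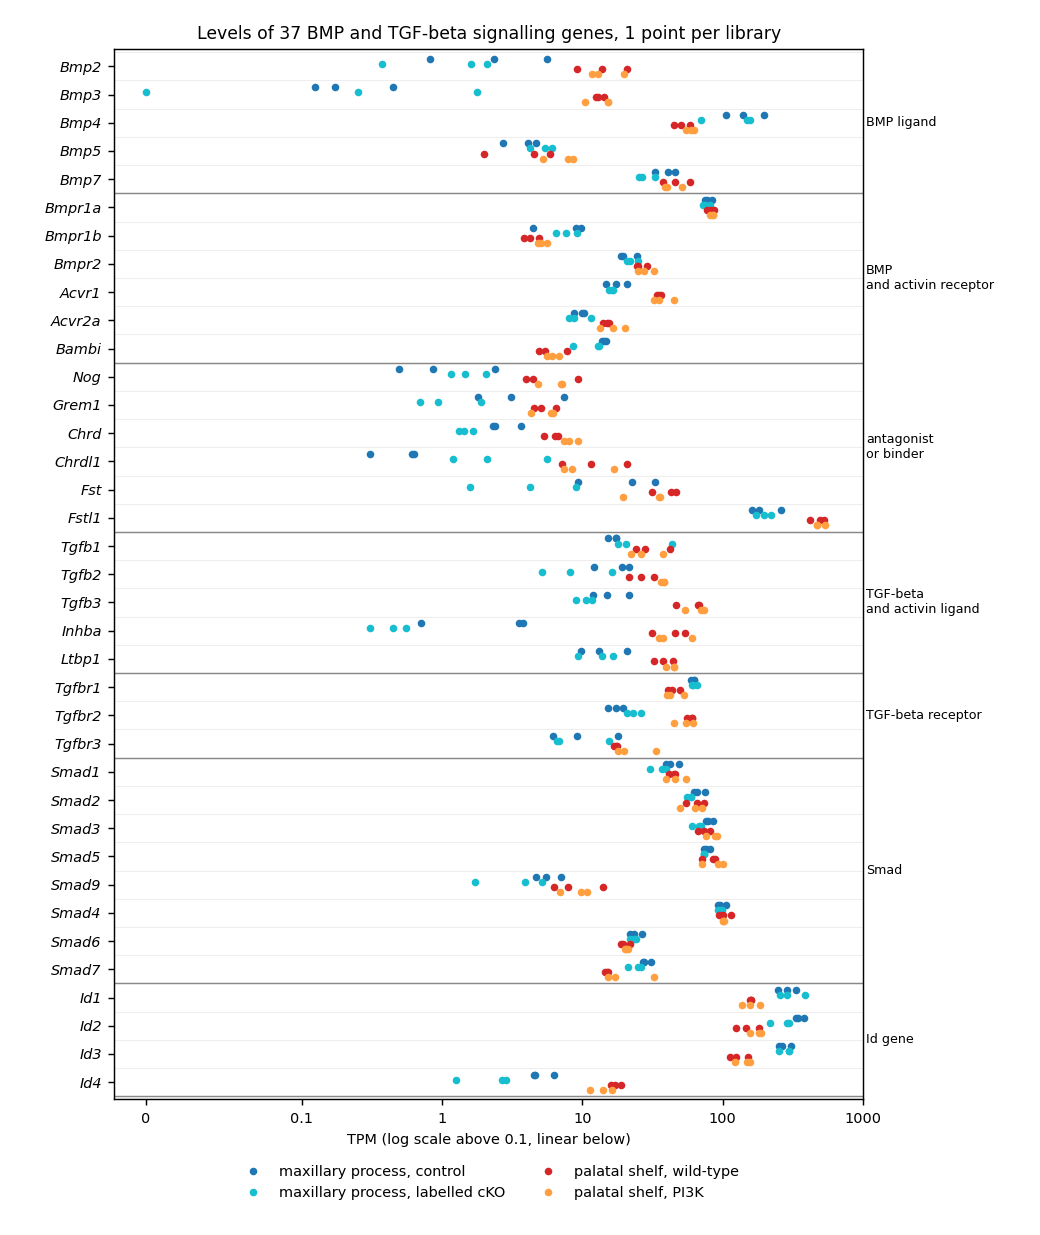
TPM of each of the 37 genes (rows, grouped by role) in each of the 12 libraries, 1 point per library, coloured by group; the axis is logarithmic above 0.1 TPM and linear below. Bmpr1a lies between 72.2 and 86.2 TPM in every library, while Bmp3 is at 1.77 TPM or less in every maxillary library and at 10.4 TPM or more in every palatal one.

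The palatal shelf was compared with the maxillary process from which it grows, wild-type against control (the first set) and, in separate libraries, PI3K against cKO (the second set). Of the 37 genes, 24 passed a false discovery rate (FDR) of 0.05 in the first set, 13 higher and 11 lower in the palatal shelf, while 50.6% of all 15752 genes tested passed (27.1% higher, 23.4% lower). In the second set 26 passed, 17 higher and 9 lower, while 43.3% of 15948 genes passed (23.4% higher, 19.9% lower). These were edgeR quasi-likelihood tests with Benjamini-Hochberg adjustment over all genes. Both sets gave the same direction for 21 genes (56.8% of the 37, against 35.4% of 15463 genes tested in both): 12 were higher in the palatal shelf (Bmp2, Bmp3, Acvr1, Nog, Chrd, Chrdl1, Fstl1, Tgfb3, Inhba, Ltbp1, Tgfbr2 and Id4) and 9 lower (Bmp4, Bmpr1b, Bambi, Tgfbr1, Smad4, Smad6, Id1, Id2 and Id3). The 21 were 87.5% of the first list and 80.8% of the second. TPM ranges of the tissues did not overlap for 22 of the 37 genes in the first set (57.1% of all genes) and 31 in the second (54.1%). The median size of the log2 fold change over the 37 genes was 0.88 and 1.09, and over all genes tested 0.45 and 0.51. Tissue, stage, the floxed allele and, by the lane token in the library names, the sequencing lane all differ between the 2 sides and cannot be told apart. In bulk RNA, fewer cells of a type and less RNA per cell cannot be told apart either.

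**Figure D2:**
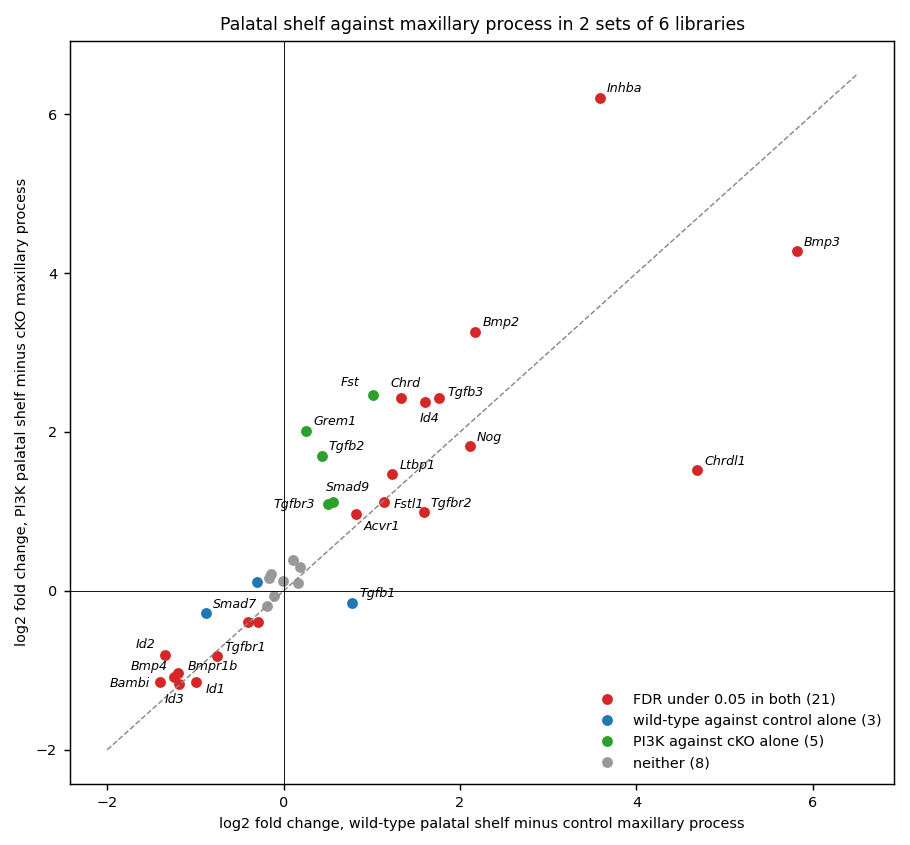
Log2 fold change of each of the 37 genes in the palatal shelf minus the maxillary process, in wild-type against control libraries (horizontal) and in PI3K against cKO libraries (vertical); the dashed line marks equal values and colours give which test passed an FDR of 0.05. The 21 genes past the threshold in both lie in the upper right (12) or lower left (9) corner.

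Among the BMP ligands, Bmp4 was lower and Bmp2 and Bmp3 higher in the palatal shelf. Bmp4, a main BMP signal of early facial mesenchyme, stood at 57.9, 45.3 and 50 TPM in wild-type libraries 1, 2 and 3 (the order used throughout) and 59.5, 62.5 and 54.5 TPM in the PI3K shelves. In the maxillary process it stood at 106, 139 and 196 TPM in the controls and 69.5, 149.8 and 156 TPM in the cKO libraries. All 6 palatal libraries lay below all 6 maxillary ones, with log2 fold change -1.24, SE 0.17, FDR 0.00124 against the controls and log2 fold change -1.09, SE 0.27, FDR 0.0141 in the second set. Bmp2, a ligand that also drives bone formation, stood at 20.7, 9.09 and 13.7 TPM in wild-type and 19.9, 13.0 and 11.7 TPM in PI3K shelves, above the 0.828, 2.33 and 5.61 TPM of the controls and the 1.61, 0.374 and 2.10 TPM of the cKO libraries. Its log2 fold changes were 2.17 (SE 0.57, FDR 0.0155) and 3.26 (SE 0.53, FDR 0.00231). The first of these was lost without wild-type library 1 (FDR 0.0539) or control library 2 (FDR 0.0676), and without control library 3 the difference was 2.97. Bmp3, an atypical BMP that counters other BMPs, was at 13.0, 12.6 and 14.3 TPM in wild-type and 15.3, 15.2 and 10.4 TPM in PI3K shelves against 0.125, 0.173 and 0.449 TPM in controls and 1.77, 0.251 and 0 TPM in cKO libraries. It had the largest difference of the 37 genes in the first set, 5.82 (SE 0.26, FDR 1.86e-05). In the second set it gave 4.28 (SE 0.88, FDR 0.00606), and 5.97 without cKO library 1. Bmp5 (1.99 to 8.55 TPM over the 12 libraries) and Bmp7 (37.4, 58.4 and 45.9 TPM in wild-type, 40.0, 51.4 and 38.7 in PI3K, 32.7, 40.4 and 45.7 in control and 26.5, 32.7 and 25.4 in cKO libraries), further ligands of the BMP receptors, passed in neither set, though Bmp7 passed in the second on the TPM scale (0.60, FDR 0.0178, limma on log2(TPM + 1)). On that scale the median of all genes in the second set itself lay 0.21 above 0, and the count test gave 0.39 for Bmp7.

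BMP receptors had similar levels in both tissues, apart from Acvr1, Bmpr1b and the pseudoreceptor Bambi. Acvr1, a type I receptor for BMPs and activins, stood at 35.4, 34.2 and 36.1 TPM in wild-type and 35.3, 44.6 and 32.1 TPM in PI3K shelves, above every control (14.8, 17.2 and 20.8 TPM) and cKO (16.2, 15.4 and 16.4 TPM) library. The log2 fold changes were 0.83 (SE 0.11, FDR 0.000961) and 0.97 (SE 0.15, FDR 0.00207). Bambi, which resembles a receptor but lacks the kinase and is itself switched on by BMP and TGF-beta input, went the other way. It was at 7.76, 5.44 and 4.90 TPM and 6.08, 6.77 and 5.63 TPM in wild-type and PI3K shelves against 14.3, 13.8 and 14.8 TPM and 8.63, 12.9 and 13.2 TPM in control and cKO maxillary processes, so that all palatal libraries lay below all maxillary ones. Its differences were -1.40 (SE 0.18, FDR 0.000857) and -1.14 (SE 0.20, FDR 0.00297). Bmpr1b, a type I receptor of restricted expression known from cartilage, read 4.90, 3.85 and 4.25 TPM in wild-type and 4.80, 5.10 and 5.62 TPM in PI3K shelves. The controls read 9.75, 9.02 and 4.41 TPM, with library 3 among the palatal values, and the cKO libraries 7.62, 9.10 and 6.45 TPM. The difference was -1.20 (SE 0.35, FDR 0.0230) in the first set and -1.04 (SE 0.19, FDR 0.00342) in the second. The first was lost without wild-type library 2 (FDR 0.0660) or 3 (FDR 0.0731) and without control library 1 (FDR 0.0643) or 2 (FDR 0.0708). On the TPM scale tested with limma, neither passed (FDR 0.0902 and 0.0776). Bmpr1a (77.7, 82.1 and 86.2 TPM in wild-type, 84.9, 80.5 and 85.8 in PI3K, 76.7, 74.8 and 83.5 in control and 74.4, 81.5 and 72.2 in cKO libraries), the type II receptor Bmpr2 (18.8 to 32.5 TPM) and the activin receptor Acvr2a (8.04 to 20.1 TPM) passed in neither set. Bmpr1a did pass in the first set without control library 3 (-0.24, FDR 0.0308) and with DESeq2 (-0.19, FDR 0.0433). Acvr2a was higher in all 6 palatal than in all 6 maxillary libraries in TPM, passed on that scale in both sets (0.59 and 0.75, FDR 0.00887 and 0.0228) and in the second set passed without cKO library 1 as well (0.45, FDR 0.0478). The median of all genes on the TPM scale lay 0.16 and 0.21 above 0, and the count test gave 0.19 and 0.30 for Acvr2a.

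Every antagonist and binder that passed was higher in the palatal shelf: 4 of 6 in the first set and 6 of 6 in the second. Of all genes tested, 27.1% passed as higher in the first set and 23.4% in the second. Nog encodes noggin, a high-affinity trap for BMP2, BMP4 and BMP7, and stood at 9.31, 3.95 and 4.48 TPM in wild-type and 7.08, 7.11 and 4.79 TPM in PI3K shelves against 0.866, 0.496 and 2.37 TPM in controls and 2.06, 1.15 and 1.46 TPM in cKO libraries. The difference was 2.11 (SE 0.57, FDR 0.0174) and 1.82 (SE 0.34, FDR 0.00391). The first was lost without wild-type library 1 (FDR 0.0570), control library 1 (FDR 0.0560) or control library 2 (FDR 0.0556), and without control library 3 it was 2.91. Chrd encodes chordin, which binds BMPs until it is cut by tolloid proteases, and was at 6.70, 5.35 and 6.38 TPM and 7.43, 9.36 and 7.98 TPM in the wild-type and PI3K shelves against 2.38, 2.30 and 3.65 TPM and 1.67, 1.43 and 1.31 TPM in controls and cKO libraries (wild-type comes before PI3K, and control before cKO, throughout). Its differences were 1.33 (SE 0.26, FDR 0.00468) and 2.43 (SE 0.27, FDR 0.000514), with no overlap between tissues. Fstl1 stood at 524, 416 and 493 TPM and 534, 468 and 468 TPM against 163, 182 and 261 TPM and 222, 171 and 197 TPM, again with no overlap. It was 2.20-fold and 2.17-fold higher in the shelf (SE of the log2 fold change 0.16 and 0.12, FDR 0.00127 and 0.000442).

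Chrdl1, a chordin-like BMP antagonist, was higher in the shelf in both sets, and the TPM ranges of the 2 maxillary groups did not overlap either. It was at 20.8, 7.18 and 11.4 TPM in wild-type shelves, 16.8, 8.41 and 7.42 TPM in PI3K shelves, 5.64, 2.09 and 1.21 TPM in cKO maxillary processes and 0.608, 0.309 and 0.630 TPM in controls. Both the palatal and the cKO values were above every control value, and library 1 was the highest in 3 of the 4 groups. The palatal difference was 4.69 against the controls (SE 0.49, FDR 0.000399) and 1.52 against the cKO libraries (SE 0.52, FDR 0.0442). The second passed only in the fit without cKO library 1 (2.28, FDR 0.00421) among the 6 fits that left out a library: the FDR was 0.152, 0.0603 and 0.0590 without PI3K library 1, 2 or 3, 0.145 without cKO library 2 and 0.116 without cKO library 3. Fst encodes follistatin, an activin and BMP trap, and read 31.4, 46.5 and 43.0 TPM in wild-type and 35.3, 36.0 and 19.6 TPM in PI3K shelves, 9.34, 22.6 and 32.8 TPM in controls and 1.58, 4.21 and 8.96 TPM in cKO libraries. The controls spread from just above the cKO libraries to well inside the palatal range. The first set gave 1.01 (SE 0.37, FDR 0.0529), which passed without control library 1 (FDR 0.0415) or 3 (FDR 0.0143), and the second 2.47 (SE 0.50, FDR 0.00575), or 3.08 without cKO library 3. Grem1 encodes the BMP antagonist gremlin and read 6.49, 5.05 and 4.56 TPM and 6.01, 4.32 and 6.20 TPM in the shelves, 1.81, 3.10 and 7.42 TPM in controls and 0.939, 0.692 and 1.89 TPM in cKO libraries. Control library 3 lay above all palatal libraries. The first set did not pass (FDR 0.647, or 0.0356 without control library 3), and the second gave 2.01 (SE 0.38, FDR 0.00399). Over all 12 libraries, the difference between the 2 sets did not pass for Fst (first minus second -1.48, FDR 0.581) or Grem1 (-1.79, FDR 0.469).

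Of the 5 genes for TGF-beta and activin ligands and their latency protein, 4 were higher in the palatal shelf in each set, and none passed in the other direction. The share of all genes that passed as higher was 27.1% and 23.4%. Inhba encodes the subunit of activin A and stood at 31.4, 54.2 and 45.9 TPM in wild-type and 37.2, 60.1 and 35.3 TPM in PI3K shelves, but at 0.706, 3.54 and 3.79 TPM in controls and 0.306, 0.557 and 0.449 TPM in cKO libraries. This was 12-fold higher than the controls (log2 3.58, SE 0.49, FDR 0.00111) and 74.0-fold higher than the cKO libraries (log2 6.21, SE 0.44, FDR 0.000107). The second fold rests on few reads, with 8, 27 and 32 estimated counts in the cKO libraries, and limma on log2(TPM + 1) gave 4.94. Tgfb3, the TGF-beta isoform required at the palatal edge for fusion, stood at 68.1, 46.1 and 67.1 TPM and 73.7, 69.9 and 53.5 TPM against 12, 15.1 and 21.5 TPM and 10.7, 9.05 and 11.7 TPM. All 6 palatal libraries were above all 6 maxillary ones, with differences of 1.76 (SE 0.21, FDR 0.000702) and 2.43 (SE 0.17, FDR 9.67e-05). Tgfb3 is known from the edge epithelium, and the ectoderm markers were higher in the same libraries; their part in its level was not tested. Ltbp1, which tethers latent TGF-beta to the matrix, stood at 44.2, 32.2 and 37.5 TPM and 45.2, 39.3 and 44.8 TPM against 9.80, 13.2 and 20.9 TPM and 16.4, 9.38 and 13.8 TPM (log2 1.23 and 1.47, SE 0.23 and 0.17, FDR 0.00352 and 0.000647).

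Tgfb1 and Tgfb2, the other TGF-beta isoforms, each passed in 1 of the 2 sets. Tgfb1 stood at 41.9, 24.2 and 28.1 TPM in wild-type shelves, 37.5, 22.1 and 26.2 TPM in PI3K shelves, 17.2, 17.2 and 15.2 TPM in controls and 43.8, 20.5 and 17.9 TPM in cKO libraries. In 3 of the 4 groups library 1 was far above the other 2. The first set gave 0.77 (SE 0.22, FDR 0.0205), lost without control library 2 (FDR 0.0590) or 3 (FDR 0.0645), and the second did not pass (FDR 0.751). Tgfb2 stood at 32.5, 21.4 and 25.9 TPM and 36.5, 38.2 and 38.4 TPM in wild-type and PI3K shelves against 12, 19.0 and 21.4 TPM and 16.3, 5.15 and 8.14 TPM in control and cKO processes. It did not pass in the first set (FDR 0.123) and gave 1.70 (SE 0.37, FDR 0.00793) in the second, or 2.30 without cKO library 1. Wild-type library 1, with the high bone and cartilage sum (1819 TPM), was the highest of its group for Tgfb1 and for 18 of the 37 genes (48.6%, against 31.2% of all genes). That library was also the lowest of its group for 16 of the 37. The summed level of 6 macrophage markers was also highest in the same libraries as Tgfb1: 85.2, 67.8 and 40.2 TPM in library 1 of the wild-type, PI3K and cKO groups against 31.7 to 46.5, 35.4 to 45.9 and 24.7 to 27.3 TPM in libraries 2 and 3. The part of these cells in the levels was not tested.

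The TGF-beta receptors did not shift together: Tgfbr2 was higher and Tgfbr1 lower in the palatal shelf. Tgfbr2, the type II receptor that binds ligand first, stood at 60.3, 55.7 and 60.4 TPM and 61.1, 44.7 and 54.3 TPM in the shelves against 15.1, 17.4 and 19.5 TPM and 26.0, 23.1 and 20.8 TPM in the maxillary processes. Tgfbr1, the type I kinase that it activates, stood at 40.9, 49.3 and 43.7 TPM and 42.4, 39.8 and 52.9 TPM against 62.7, 62.2 and 59.8 TPM and 65.0, 60.7 and 61.1 TPM. Neither gene overlapped between tissues, and in every maxillary library Tgfbr1 exceeded Tgfbr2 per transcript length. Tgfbr2 gave 1.59 (SE 0.10, FDR 6.04e-05) and 0.99 (SE 0.14, FDR 0.00137), and Tgfbr1 -0.75 (SE 0.09, FDR 0.000813) and -0.82 (SE 0.11, FDR 0.00113). The co-receptor gene Tgfbr3 (betaglycan) read 16.9, 17.4 and 17.6 TPM, 17.8, 33.2 and 19.8 TPM, 6.19, 9.12 and 17.9 TPM and 15.5, 6.56 and 6.85 TPM in wild-type, PI3K, control and cKO libraries, with PI3K library 2, control library 3 and cKO library 1 far above the rest of their groups. It passed in the second set alone (1.09, SE 0.34, FDR 0.0321; first set FDR 0.107). That call was lost without PI3K library 2 (FDR 0.103) or 3 (FDR 0.0562) and without cKO library 2 (FDR 0.109) or 3 (FDR 0.103), and the first set passed without control library 3 (FDR 0.00346).

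Of the 8 Smads, the intracellular carriers of the signal, 4 were called in the first set, all lower in the shelf, a share near the 50.6% of all genes. Smad1, Smad2 and Smad5 passed in neither set and lay between 30.4 and 54.4, 49.8 and 74.2, and 70.8 and 100.2 TPM over the 12 libraries. Smad7, an inhibitory Smad that is itself a target of TGF-beta and BMP input, had the lowest FDR of the group in the first set, and alone of the 4 passed on the TPM scale there. It stood at 14.4, 15.2 and 15.0 TPM in wild-type shelves, below every control (27.6, 27.1 and 31.0 TPM), with log2 fold change -0.88, SE 0.09, FDR 0.000327. In the second set PI3K library 2 stood apart (15.3, 32.2 and 17 TPM in PI3K shelves against 26.1, 21 and 25.1 TPM in cKO libraries). That set did not pass (FDR 0.392), and without PI3K library 2 it gave -0.66 (FDR 0.00714). Smad6, the inhibitory Smad of the BMP branch, read 21.7, 18.9 and 19.4 TPM and 21.2, 20.6 and 20.0 TPM in the shelves against 21.7, 23.2 and 26.5 TPM and 23.3, 21.9 and 24.0 TPM. The differences were -0.41 (SE 0.10, FDR 0.0123) and -0.39 (SE 0.11, FDR 0.0202). The first was lost without wild-type library 3 (FDR 0.0592) and the second without PI3K library 1 (FDR 0.0516), PI3K library 3 (FDR 0.0679) or cKO library 3 (FDR 0.0770), and on the TPM scale neither passed (FDR 0.142 and 0.349).

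Smad4, Smad3 and Smad9 turned on the scale or on single libraries. Smad4, shared by both branches, read 93.4, 115 and 101 TPM and 101, 99.8 and 102 TPM in the shelves and 95.7, 106 and 92.4 TPM and 96.0, 93.0 and 99.0 TPM in the maxillary processes. Counts scaled by edgeR put it lower in the shelf (-0.29, SE 0.08, FDR 0.0175; and -0.39, SE 0.09, FDR 0.0119), whereas limma on log2(TPM + 1) put it slightly higher without passing (0.07 in each set, FDR 0.593 and 0.546). On that scale the median of all genes itself lay 0.16 and 0.21 above 0, and 68.7% and 73.2% of the genes that passed were higher in the shelf, against 4274 of 7965 and 3724 of 6900 in the count test. The ratio of estimated count to TPM for Smad4, centred in each library, was lower in the shelf without passing (log2 -0.19 and -0.23, FDR 0.234 and 0.0818, limma). The first Smad4 call was also lost without wild-type library 1 (FDR 0.0612). Smad3, which carries TGF-beta and activin input, read 66.1, 80.7 and 73.8 TPM, 76.4, 91.2 and 88.3 TPM, 75.6, 77.9 and 85.1 TPM and 70.3, 60.5 and 67.7 TPM in wild-type, PI3K, control and cKO libraries. It passed in the first set (log2 fold change -0.30, SE 0.07, FDR 0.0104), not without wild-type library 3 (FDR 0.0571) nor on the TPM scale (FDR 0.372), and not in the second (FDR 0.430), where the TPM scale gave 0.36 (FDR 0.0346). Smad9, the scarcest receptor Smad, read 14.1, 6.23 and 7.86 TPM and 9.74, 10.9 and 6.95 TPM in the shelves against 5.49, 4.64 and 7.07 TPM and 1.73, 3.88 and 5.18 TPM. It passed in the second set alone (log2 fold change 1.12, SE 0.37, FDR 0.0413), and not without PI3K library 1 (FDR 0.0966), PI3K library 2 (FDR 0.117) or cKO library 2 (FDR 0.0946). In the first set it passed without wild-type library 2 (FDR 0.0485).

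Id1, Id2 and Id3 were lower and Id4 higher in the palatal shelf in both sets. Id proteins pair with basic helix-loop-helix factors and keep them off DNA. Id1 stood at 156, 159 and 159 TPM in wild-type and 185, 138 and 156 TPM in PI3K shelves against 332, 286 and 248 TPM in controls and 257, 386 and 285 TPM in cKO libraries. Id2 stood at 181, 125 and 147 TPM and 181, 188 and 156 TPM against 344, 379 and 331 TPM and 217, 296 and 286 TPM. Id3 stood at 150.1, 125 and 113 TPM and 156, 121 and 148 TPM against 262, 252 and 306 TPM and 250, 297 and 294 TPM. For each of these 3 genes the highest palatal library lay below the lowest maxillary library. The first set gave -0.99, -1.34 and -1.19 for Id1, Id2 and Id3 (SE 0.14, 0.16 and 0.12, FDR 0.00117, 0.000594 and 0.000397). The second gave -1.15, -0.81 and -1.18 (SE 0.19, 0.16 and 0.14, FDR 0.00236, 0.00503 and 0.000587). Id4, the divergent member of the family, stood at 16.1, 18.8 and 17.1 TPM and 16.3, 11.4 and 14.0 TPM in the shelves, above every control (4.60, 4.54 and 6.26 TPM) and cKO (1.26, 2.67 and 2.86 TPM) library. Its differences were 1.60 (SE 0.13, FDR 0.000138) and 2.38 (SE 0.31, FDR 0.000952). In the plot of Id genes and other pathway genes by library, Id1 to Id3, Bmp4 and Bambi are lower to the right, in the shelves, and Id4, Nog and Tgfb3 are higher there. The GGCGCC letters shown above stand before the RefSeq starts of both Id2 and Id4.

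**Figure D3:**
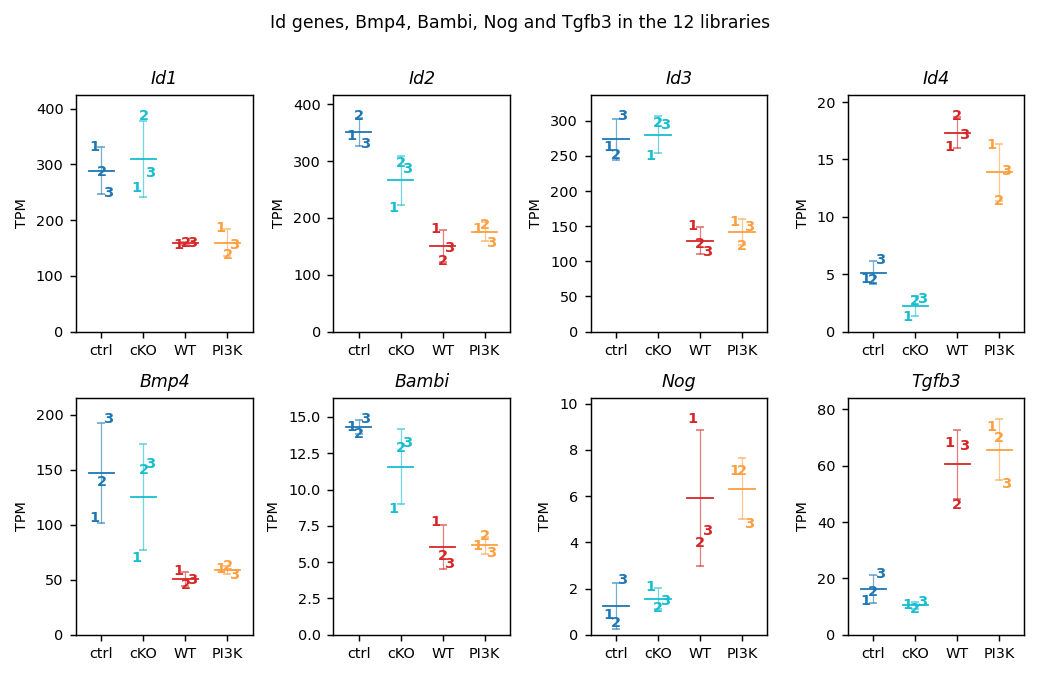
TPM of Id1, Id2, Id3, Id4, Bmp4, Bambi, Nog and Tgfb3 in maxillary control (ctrl), maxillary cKO, wild-type (WT) and PI3K palatal shelf libraries; digits are the library numbers, horizontal lines the group means and bars 1 SD (n = 3). Id1, Id2, Id3, Bmp4 and Bambi are lower in all 6 palatal libraries than in all 6 maxillary ones, and Id4, Nog and Tgfb3 are higher.

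Taking the 37 genes through every fit that left out 1 library, 15 of the 21 genes called in both sets kept their call in all 12 fits: Bmp3, Bmp4, Acvr1, Bambi, Chrd, Fstl1, Tgfb3, Inhba, Ltbp1, Tgfbr1, Tgfbr2, Id1, Id2, Id3 and Id4. How many of the 5474 genes called in both sets in the same direction did so was not counted. The 15 therefore cannot be set against the share of all genes. Of the 44 further pathway genes listed with the 37 (other ligands, receptors, binders, latency proteins, Smad cofactors and targets), 42 could be tested in each set. The first set called 23 higher and 5 lower in the shelf (66.7% of 42, against 50.6% of all genes) and the second 22 higher and 6 lower (66.7%, against 43.3%).

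In the palatal shelf, none of the 37 genes differed between PI3K and wild-type embryos at an FDR of 0.05, and no gene of the 16525 tested did (0%, edgeR). The comparison asks what changes when PDGFRα, as this allele is known to encode it, cannot bind PI3K. At an unadjusted p under 0.05 there were 3 of the 37 genes, all higher in PI3K shelves, against 2.14% of all genes (1.53% higher, 0.611% lower). DESeq2 called 5 genes and none of the 37. The TPM ranges of the groups did not overlap for 4 of the 37 genes (6.55% of all genes): Chrd, Tgfb2, Tgfbr3 and Smad7, all above wild-type. The fitted difference was positive for 27 genes and negative for 10, with a median of 0.05 against -0.01 over all genes.

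The chordin gene Chrd averaged 6.14 ± 0.703 TPM (SD, n = 3) in wild-type and 8.26 ± 0.993 TPM in PI3K shelves, and each PI3K library was above each wild-type one (0.48, SE 0.13, FDR 1.000). Tgfb2 averaged 26.6 ± 5.58 TPM and 37.7 ± 1.03 TPM, and the 3 PI3K libraries lay close together above the wild-type spread (0.54, SE 0.15, FDR 1.000). Tgfbr3, whose product presents TGF-beta2 to the signalling receptors, averaged 17.3 ± 0.354 TPM and 23.6 ± 8.35 TPM (0.46, SE 0.19, FDR 1.000). Its PI3K mean rests on library 2, and libraries 1 and 3 stood just above the wild-type range. None of these 3 passed under any alternative or without any library (lowest FDR 0.460 for Chrd and Tgfb2). The 95% intervals of the log2 difference were narrow for several central genes: -0.14 to 0.20 for Bmpr1a, -0.16 to 0.22 for Smad4, -0.26 to 0.28 for Id1 and -0.24 to 0.31 for Fstl1. They were wide for Bmp5 (-0.07 to 1.67), Chrdl1 (-1.27 to 0.92) and Nog (-0.78 to 0.97), so that changes of that size were not detectable. Skeletal muscle markers summed to 50.5, 1.26 and 2.15 TPM in wild-type and 201, 29.1 and 112 TPM in PI3K libraries, and their part in these values was not tested. Of the further pathway genes 0 of 42 passed and 1 had an unadjusted p under 0.05.

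**Figure D4:**
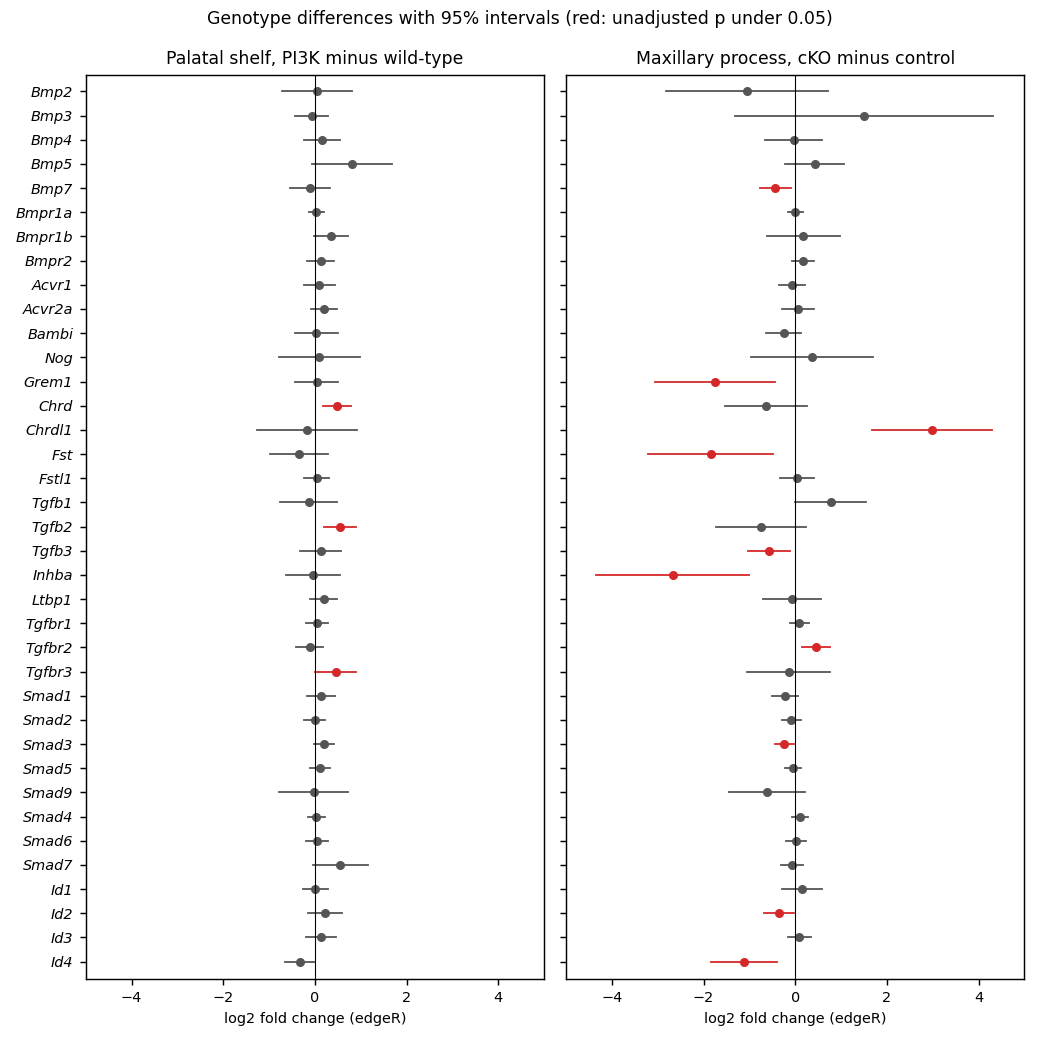
Log2 fold change with its 95% interval for each of the 37 genes, PI3K minus wild-type palatal shelf (left) and cKO minus control maxillary process (right), from edgeR; red marks an unadjusted p under 0.05, which 3 genes reached on the left and 10 on the right. No gene passed an FDR of 0.05 on either side.

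In the maxillary process, none of the 37 genes passed an FDR of 0.05 between libraries labelled Srsf3 cKO and controls, while 12 of 14254 genes did (0.0842%, with 0.0561% higher and 0.0281% lower, edgeR). At an unadjusted p under 0.05 there were 10 of the 37 genes, 2 higher and 8 lower in the cKO libraries, against 12.2% of all genes (6.34% higher, 5.91% lower). The groups did not overlap for 13 of the 37 genes (3 above, 10 below the controls), against 17.5% of all genes. DESeq2 called 356 genes, among them 5 of the 37: Chrdl1 (FDR 3.35e-05), Inhba (FDR 0.00466), Fst (FDR 0.0253), Id4 (FDR 0.0333) and Grem1 (FDR 0.0413). Without a filter on low counts edgeR called Chrdl1 alone of the 37 (FDR 0.0157). With 1 library left out, edgeR called 6, 2 and 3 genes without control library 1, 2 or 3 and 29, 4 and 10 without cKO library 1, 2 or 3, none of them among the 37. Control library 3 was the highest control for 31 of the 37 genes (83.8%), as it was for 50.4% of all genes.

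The largest differences were in secreted antagonists and in activin. Chrdl1 averaged 0.516 ± 0.179 TPM in controls and 2.98 ± 2.35 TPM in cKO libraries, with all 3 cKO libraries above all controls and library 1 the highest (log2 fold change 2.98, SE 0.56, FDR 0.140). Without cKO library 1 the difference was 2.18 (FDR 0.0897). Inhba averaged 2.68 ± 1.71 TPM and 0.437 ± 0.126 TPM, and control library 1 was close to the cKO range (log2 fold change -2.67, SE 0.71, FDR 0.277). Fst averaged 21.6 ± 11.8 TPM and 4.92 ± 3.74 TPM, with the lowest control just above the highest cKO library (log2 fold change -1.84, SE 0.59, FDR 0.322, and -2.45 without cKO library 3). Grem1 averaged 4.11 ± 2.94 TPM and 1.18 ± 0.634 TPM (log2 fold change -1.75, SE 0.56, FDR 0.323), where cKO library 3 exceeded control library 1 and the difference without control library 3 was -1.05. Activin and its trap follistatin were thus both at their lowest in the cKO libraries, while the chordin-like antagonist was at its lowest in the controls.

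The remaining genes with a low p had smaller differences. Id4 averaged 5.13 ± 0.977 TPM in controls and 2.26 ± 0.874 TPM in cKO libraries without overlap (log2 fold change -1.12, SE 0.31, FDR 0.280), and Id2 averaged 351 ± 24.7 TPM and 266 ± 43.0 TPM, also without overlap (log2 fold change -0.35, SE 0.14, FDR 0.386). Id1 and Id3 overlapped between the groups, with 95% intervals of -0.29 to 0.58 and -0.15 to 0.33. Tgfbr2 averaged 17.3 ± 2.18 TPM and 23.3 ± 2.60 TPM, each cKO library above each control (log2 fold change 0.46, SE 0.13, FDR 0.287). Tgfb3 averaged 16.2 ± 4.86 TPM and 10.5 ± 1.33 TPM, each cKO library below each control (log2 fold change -0.57, SE 0.20, FDR 0.350). Smad3 averaged 79.5 ± 4.96 TPM and 66.2 ± 5.09 TPM, likewise without overlap (log2 fold change -0.24, SE 0.09, FDR 0.365), and Bmp7 averaged 39.6 ± 6.53 TPM and 28.2 ± 3.96 TPM with cKO library 2 level with control library 1 (log2 fold change -0.43, SE 0.14, FDR 0.328). Bmp4 gave an interval of -0.67 to 0.59, Bmpr1a of -0.16 to 0.17 and Smad4 of -0.06 to 0.28.

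**Figure D5:**
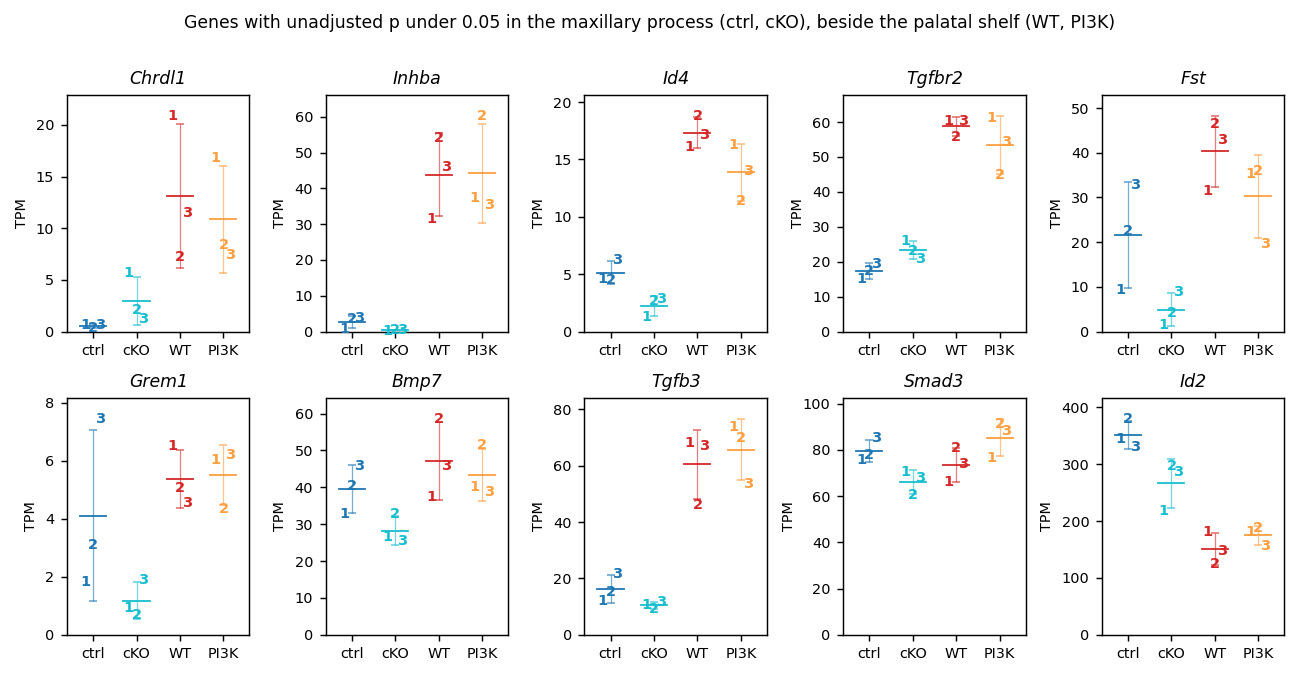
TPM of the 10 genes with an unadjusted p under 0.05 between maxillary control (ctrl) and cKO libraries, with wild-type (WT) and PI3K palatal shelves beside them; digits are library numbers, lines group means and bars 1 SD (n = 3). All cKO values of Chrdl1 and Tgfbr2 are above the controls, and all cKO values of Inhba, Fst, Tgfb3, Id4, Smad3 and Id2 are below them.

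Markers of other cells also stood apart by label. All 7 endothelium markers were higher in the cKO libraries at an unadjusted p under 0.05, and their summed level was 196, 197 and 191 TPM in controls against 462, 274 and 249.5 TPM. At that p, 6.34% of all genes were higher and 5.91% lower (edgeR). All 6 periocular mesenchyme markers were higher, 5 of them at that p and 2 past an FDR of 0.05, with sums of 25.4, 9.93 and 9.49 TPM against 197, 101 and 115.5 TPM. The 5 palatal shelf markers summed to 365, 419 and 275 TPM in controls against 65.8, 172 and 159 TPM. Most of that sum was Barx1 (328, 353 and 181 TPM against 38.0, 146 and 112 TPM). Of these 5 markers 3 were at that p, and 1 was higher in the cKO libraries (Meox2, 0.368, 0.0855 and 0.712 TPM against 1.57, 1.24 and 1.70 TPM). The 8 facial mesenchyme markers summed to 1997, 2330 and 2958 TPM against 1286, 1659 and 1902 TPM, with 0 of 8 higher in the cKO libraries and 3 at that p. Ectoderm markers were also higher in the cKO libraries (6 of 6 tested, 4 at that p, sums of 1.31 to 5.51 against 5.65 to 12.6 TPM). So were macrophage markers (5 of 5, 2 at that p, 18.2 to 21.9 against 24.7 to 40.2 TPM). Red blood cell markers were higher too (7 of 7, 0 at that p), with overlapping sums. Bone and cartilage markers were higher for 5 of 7 tested (2 at that p), with sums of 245 to 278 against 296 to 466 TPM. For skeletal muscle 2 of 2 tested were higher (1 at that p), with sums of 2.14 to 6.83 against 6.98 to 14.0 TPM. Of the neuron and glia markers 0 of 4 tested were higher in the cKO libraries and 2 were at that p. Their sum was highest in control library 3 (155.5 TPM against 33.9 to 68.6 TPM in the other 5). No marker of the endothelium, periocular or palatal lists was at 0 throughout a group. Within the cKO group, library 1 held the most endothelium and periocular signal and the lowest palatal marker sum, and was the highest of its group for 17 of the 37 genes and the lowest for 11. The part of these cells in the values of Chrdl1, Inhba, Fst, Grem1, Id4, Tgfbr2 and the other genes was not tested.

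Among 38 further pathway genes tested in the maxillary process 0 passed (0.0842% of all genes), and 8 had an unadjusted p under 0.05 (21.1%, against 12.2% of all genes), 4 in each direction. The difference between the 2 genotype effects (cKO effect minus PI3K effect, over all 12 libraries) passed for none of the 37 genes and for 0.0415% of 16877 genes. At an unadjusted p under 0.05 it stood at 10 of the 37 against 8.69% of all genes, with the lowest FDR for Chrdl1 (log2 difference 3.15, FDR 0.308). A fall or rise confined to 1 of the 2 genotypes was therefore not shown for any of them.

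Because Srsf3 is a splicing factor, the effective length of each gene (estimated count over TPM, centred in each library, on the log2 scale), which moves when long and short transcripts of a gene are used in other proportions, was compared too. It was tested with limma in genes with at least 50 counts in all 6 libraries. Between PI3K and wild-type shelves 0 of 37 genes passed an FDR of 0.05 (0.00775% of all genes), and between cKO and control maxillary processes 0 of the 29 that could be tested (0.00909% of all genes). At an unadjusted p under 0.05 there were 2 and 0 of them, against 3.90% and 5.16% of all genes. Between wild-type shelf and control maxillary process 3 of 31 passed (9.09% of all genes): Fst, longer by 0.29 in the shelf (SE 0.04, FDR 0.0336), Acvr2a, shorter (-0.27, SE 0.05, FDR 0.0407), and Id1, longer by 0.06 (SE 0.01, FDR 0.0450). Between PI3K shelf and cKO maxillary process 2 of 30 passed (7.15% of all genes): Bmpr1b (-0.22, SE 0.03, FDR 0.0172) and Tgfbr1 (-0.12, SE 0.02, FDR 0.0218), both shorter in the shelf. In the other set of libraries the same genes gave -0.27 for Acvr2a (FDR 0.0586), 0.05 for Id1 (FDR 0.0832), -0.15 for Bmpr1b (FDR 0.229) and -0.11 for Tgfbr1 (FDR 0.0839), and Fst had too few counts. No gene was called in both sets, and the calls depended on single libraries: 0 or 1 of the 37 passed in the first set and 0 to 2 in the second when any 1 library was left out. Fst and Acvr2a overlap other gene models on the opposite strand, and the part of those in the length shift was not tested. Id2 and Id3, like Id1 below the median gene in effective length, moved about as far in the first set. They gave 0.05 and 0.06 (FDR 0.0573 and 0.0509, limma). Whether the small Id1 shift reflects a change in the transcripts used was not tested.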

How the data were processed

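Libraries of polyadenylated RNA came from a NuGen kit (Universal Plus mRNA-Seq) and were read on a NovaSeq, per the labels' protocols. The authors deposited, for each library, estimated counts and TPM for 53392 genes. The submitters' processing notes name Salmon 1.1.0, STAR 2.7.0, DESeq2 1.28.1 and mm10, without their roles. The annotation, trimming and strand setting are not given in the sources used here. Gene names came from GENCODE M21 (GRCm38) for 53355 identifiers, and 37 were not matched. No deposited value column lacked a sample (0).

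Estimated counts were rounded and tested in edgeR 4.0.16 (R 4.3.3) with TMM scaling, filterByExpr and the quasi-likelihood F-test, each comparison on its own 6 libraries, with Benjamini-Hochberg adjustment over all genes tested (FDR 0.05). This was tested on simulated data first. Alternatives used DESeq2 1.42.0, limma 3.58.1 on log2(TPM + 1) or log2(TPM + 0.1) for genes above 0.5 TPM in at least 3 libraries, other filters and scalings, a replicate block, and each library left out. Intervals are 95%. Effective length is the estimated count over TPM.

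The 37 genes and all lists were chosen with earlier results of these data known. Per-library values are given for genes past the FDR in any comparison, those with an unadjusted p under 0.05 between genotypes, and the most abundant gene of each role. The interaction test, and effective length between PI3K shelf and cKO process, were chosen after seeing the data. Replicates differed by far more than counting noise (chi-square per degree of freedom 11.75 or more), and none was merged.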

Additional observations from a re-analysis of the deposited data

How the results depend on the processing

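Of 923 log2 fold changes of single genes recomputed under an alternative, 852 kept their direction and side of the threshold, 44 lost and 18 gained significance, and 9 changed sign. Of 153 counts of calls, 126 stayed within 1.5 times the reported count, 18 were lower and 9 higher. Those that changed sign were Smad4 on the TPM scale (0.0713 and 0.0719 with the pseudocounts 1 and 0.1 for wild-type against control, 0.0703 and 0.0709 for PI3K against cKO), Grem1 in the first of these without control library 1 (-0.11, and up to 0.90 with 1 library left out), and Tgfb1 in the second (0.14 on the TPM scale with either pseudocount, 0.01 without PI3K library 2 and 0.34 without cKO library 1, and down to -0.39 with 1 library left out). No Grem1 or Tgfb1 value of the opposite sign passed. The number of the 37 genes called between palatal shelf and maxillary process was 24, with 20 to 27 when 1 library was left out and 21 to 26 otherwise, and in the second set 26, with 23 to 27 and 24 to 26. The number of all genes called moved too. With 1 library left out it was 5877 to 8473 of 15670 to 16577 tested, and in the second set 5042 to 7470 of 16155 to 16622. Otherwise it was 6761 to 8102 of 14137 to 26435, and in the second set 5900 to 7322 of 14129 to 26500. Without a low-count filter or on the TPM scale the median of all genes moved to 0.16 to 0.29. Between PI3K and wild-type shelves DESeq2 called 5 genes. Between cKO and control processes the number of all genes called was 143 without a filter, 356 with DESeq2 and 2 to 29 with 1 library left out, and of the 37 genes 1 without a filter and 5 with DESeq2, the cause of which was not tested. For effective length, the first set called 1 gene at a minimum of 20 counts, 6 at 100, and 0 to 1 with 1 library left out, and the second 0 to 2.

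With the replicate number as a block, 40 genes were called between cKO and control processes, among them 1 of the 37 (Fst, FDR 0.0320), and none passed for effective length in either set (0). Between tissues the block gave 24 of the 37 in each set, gained Fst (FDR 0.0205) and lost Smad4 (FDR 0.0527) in the first and lost Smad9 (FDR 0.0645), Tgfbr3 (FDR 0.0590) and Smad6 (FDR 0.0578) in the second, where Bmp7 passed (FDR 0.0340). Of all genes, the block called 6835 of 15752 in the first set and 5900 of 15948 in the second. Same-numbered libraries did not deviate together in all pairs (r for numbers 1, 2 and 3: 0.53, 0.22 and -0.22 in the shelves, 0.08, 0.11 and 0.23 in the processes, -0.14, 0.03 and -0.02, and 0.05, -0.05 and 0.00 between tissues). With 3 libraries in a group, these values cannot show whether libraries of the same number are paired. Of 6 libraries, 3, 4, 1 and 2 correlated best with their own number. Genes at a few TPM, such as Bmp3, Chrdl1, Inhba and Grem1 in the maxillary process, rest on few reads, and a depth of 15932541 to 27887654 counts per maxillary library limits their precision.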

Other observations

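Among the 44 further genes of these pathways, the examples below were chosen after their values were seen. RNA of genes for matrix proteins that hold latent TGF-beta was higher in the palatal shelf than in the maxillary process. Ltbp3 stood at 63.0, 47.4 and 58.8 TPM in wild-type libraries 1, 2 and 3 and 64.0, 54.7 and 53.2 TPM in PI3K shelves against 3.6, 5.99 and 11.49 TPM in controls and 4.28, 2.30 and 3.55 TPM in cKO maxillary processes. Its log2 fold changes were 2.86 and 3.87 (SE 0.35 and 0.22, FDR 0.000688 and 5.33e-05, edgeR). Ltbp4 gave 3.10 and 3.39 (FDR 4.63e-05 and 0.000234). Ltbp2 passed as well (FDR 0.0212 and 0.00417) but rests on few reads and mainly on library 1 of each palatal group, at 4.82, 0.124 and 1.33 TPM in wild-type and 7.57, 0.733 and 1.08 TPM in PI3K shelves against 0.0260, 0.254 and 0.11 TPM in controls and 0.0770, 0.0181 and 0 TPM in cKO libraries. Wild-type library 2 lay inside the control range. The BMP antagonist gene Sostdc1, known from epithelium, was higher in the shelf by 2.90 and 3.24 (FDR 0.00269 and 0.000131). Ectoderm markers were higher in the same libraries, and their part in the Sostdc1 level was not tested. The homeobox genes Msx1 and Msx2, which respond to BMP4 in the face, were lower in the shelf, as were Id1 to Id3. Msx1 stood at 111, 166 and 131 TPM and 112, 168 and 105 TPM in wild-type and PI3K shelves against 393, 434 and 463 TPM and 126, 372 and 426 TPM in control and cKO processes (-1.80 and -1.48, FDR 0.000151 and 0.0233), and Msx2 gave -3.24 and -1.41 (FDR 0.00564 and 0.0110).

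Between cKO and control maxillary processes, the further genes with an unadjusted p under 0.05 were of several kinds, and none passed an FDR of 0.05. Eng and Acvrl1, the endoglin co-receptor and ALK1 receptor genes of endothelium, had positive differences (1.17 and 1.14, FDR 0.280 and 0.260), as did the 7 endothelium markers. The secreted matrix genes Tgfbi (1.94, FDR 0.174) and Ccn2 (1.38, FDR 0.301), both known TGF-beta targets, also had positive differences. Negative differences included Ltbp3 (-1.0, FDR 0.391), the inhibitor gene Pmepa1 (-0.51, FDR 0.365) and Bmp1 (-0.58, FDR 0.11), whose product cuts chordin. Bmp1 read 58.5, 58.8 and 67.2 TPM in controls and 35.1, 38.8 and 43.6 TPM in cKO libraries.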
